A study of Danio rerio with 15 samples.

Results

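The 10 skin ionocyte genes described here, which encode ion transporters, acid-base enzymes and lineage regulators, were chosen by symbol from the authors' deposited table of differential expression, which holds 36351 genes. They are the regulators foxi3a, foxi3b and gcm2, the genes of H+-ATPase-rich (HR) cells ca2, ca15a, slc9a3.2, rhcgb and atp6v1aa, and the genes of Na+-Cl- cotransporter (NCC) cells slc12a10.2 and slc4a4b. Each symbol had 1 row, so no choice among rows arose. All 10 genes passed the authors' filter on low counts and had an adjusted p-value.

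Ionocytes are the mitochondrion-rich cells of fish skin and gill that take up ions from fresh water and excrete acid and ammonia. In zebrafish embryos and larvae they lie scattered among the keratinocytes of the yolk and trunk skin, and several subtypes divide the work. HR cells secrete protons and take up sodium, Na+/K+-ATPase-rich (NaR) cells take up calcium, NCC cells take up chloride, and KS cells secrete potassium. The forkhead factors foxi3a and foxi3b specify the lineage from epidermal precursors, and gcm2 is needed for HR cells.

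Whole wild-type AB zebrafish were exposed through the water to 50 nM tris(4-chlorophenyl)methanol (TCPMOH), a persistent chlorinated contaminant, or to the solvent alone, dimethyl sulfoxide (DMSO) at 0.01% v/v, as control. Exposure ran for 4 hours, from 96 hours post fertilization (hpf) to collection at 100 hpf, and the series asked how such short exposures act on embryos. There were 5 TCPMOH and 5 DMSO libraries, each from a pool of 8 to 10 embryos. The series also has 5 libraries of embryos exposed to 50 nM tris(4-chlorophenyl)methane (TCPM), which were not analysed here. The series design mentions 3 experimental replicates without saying which pool came from which. The p-values therefore measure the spread between pools, some of which may share a clutch or a day.

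The authors' deposited table gives statistics of the comparison and no value per library, so the spread of a gene among pools is seen only through its standard error (SE). Base mean is a gene's average count after DESeq2 normalization. It is taken here as covering the DMSO and TCPMOH libraries, which the header does not state. It grows with transcript length as well as with expression, so it is used here for precision and not to rank genes. The header does not name the numerator of the fold change. A positive log2 fold change is read here as higher with TCPMOH than with DMSO, and if the numerator was DMSO all directions swap together.

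None of the 10 ionocyte genes passed the authors' DESeq2 Wald test at a Benjamini-Hochberg adjusted p under 0.05, against 2.68% of the 19257 genes tested in the authors' deposited table. An unadjusted p under 0.05 was reached by 3 of the 10, namely rhcgb, slc4a4b and slc9a3.2, against 13.0% of all tested genes. The log2 fold changes of the 10 genes in the authors' deposited table ran from -0.28 to 0.28, 6 negative and 4 positive. Their median was -0.01, beside -0.0016 for all tested genes, and the median size of the log2 fold change was 0.08 in both. In the other 7 the log2 fold change was at most 0.11 in size. In pools of whole animals, the number of ionocytes and the RNA per ionocyte cannot be told apart. Expression of the same genes in other cells cannot be separated from them either.

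**Figure D1:**
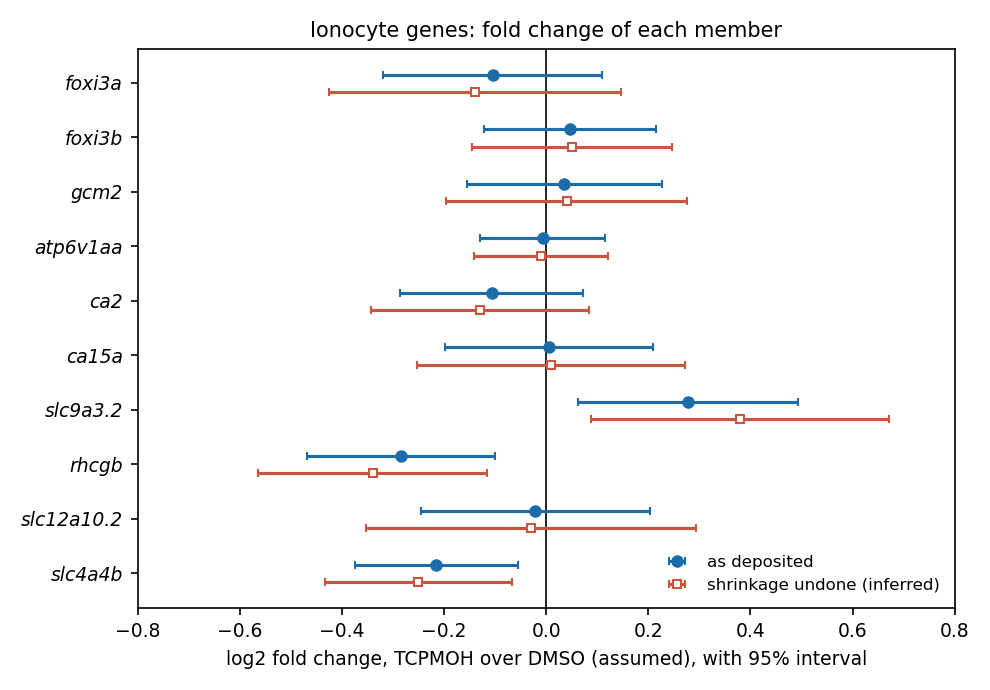
Log2 fold change (x axis, TCPMOH over DMSO as read here) of the 10 ionocyte genes, with 95% intervals of 1.96 SE. Filled circles are deposited values and open squares the values with the inferred shrinkage undone. Intervals of rhcgb and slc4a4b lie below 0 and that of slc9a3.2 above it before adjustment for multiple testing, and those of the other 7 genes include 0.

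None of the lineage regulators was called, and their unadjusted p-values all exceeded 0.05. In the authors' deposited table foxi3a, which drives ionocyte precursors toward their fate, had a base mean of 216 and a log2 fold change of -0.10 (SE 0.109; DESeq2 Wald test, adjusted p = 0.732). Its 95% interval ran from -0.32 to 0.11. The related factor foxi3b, at a base mean of 322, stood at 0.05 (SE 0.0861; DESeq2 Wald test, adjusted p = 0.863; 95% interval -0.12 to 0.22) in the authors' deposited table. The value of gcm2, a factor of HR cells that also acts in the parathyroid lineage, was 0.04 (SE 0.0974; DESeq2 Wald test, adjusted p = 0.918; 95% interval -0.16 to 0.23) at a base mean of 276, per the authors' deposited table. The point estimates of the foxi3 pair differ in sign, but each interval holds 0. The difference between 2 genes of the same libraries cannot be tested without values per library.

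The 3 regulators lie on different chromosomes. In the coordinates of the authors' deposited table, whose genome build no label or header names, foxi3a spans 30351256 to 30352951 on chromosome 21, foxi3b 34514336 to 34516587 on chromosome 14, and gcm2 8827603 to 8831912 on chromosome 24. The span listed for cplx2 on the opposite strand covers 26.3 Mb and includes foxi3b. In the authors' deposited table cplx2 stood at -0.08 (DESeq2 Wald test, adjusted p = 0.589) at a base mean of 10132, against 322 for foxi3b. The library kit was stranded, but whether strand was used in counting is not stated. Only the listed spans were compared here and not exons, so whether any reads of overlapping neighbours were shared is unknown.

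Proton secretion in HR cells needs carbonic anhydrase to supply protons and the vacuolar H+-ATPase to pump them. The catalytic subunit A gene atp6v1aa, at a base mean of 4663, had a log2 fold change of -0.01 (SE 0.0623; DESeq2 Wald test, adjusted p = 0.978) in the authors' deposited table. This was the narrowest estimate of the 10, with a 95% interval of -0.13 to 0.12. The enzyme is also used by lysosomes and other organelles in every cell, so atp6v1aa reports on more than ionocytes. The span listed for kat5b on the opposite strand covers 43.2 Mb and includes atp6v1aa, and kat5b stood at 0.01 (DESeq2 Wald test, adjusted p = 0.965) at a base mean of 1171 in the authors' deposited table. For ca2, the cytosolic carbonic anhydrase, the authors' deposited table gives a base mean of 3104 and a log2 fold change of -0.11 (SE 0.0915; DESeq2 Wald test, adjusted p = 0.667; 95% interval -0.29 to 0.07). The span of ca2 on chromosome 24 overlaps si:ch211-282b22.1 on the opposite strand, which stood at -0.16 (DESeq2 Wald test, adjusted p = 0.436) at a base mean of 285 in the authors' deposited table. The membrane-bound carbonic anhydrase gene ca15a, at a base mean of 366, stood at 0.01 (SE 0.104; DESeq2 Wald test, adjusted p = 0.987; 95% interval -0.20 to 0.21) in the authors' deposited table. All 3 estimates of the acid-supplying machinery thus were at most 0.11 from 0 on the log2 scale.

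Sodium uptake and ammonia excretion in HR cells are coupled through the apical exchanger Nhe3b, encoded by slc9a3.2, and the ammonia channel Rhcgb. Of the 10 genes rhcgb had the smallest p. Its log2 fold change in the authors' deposited table was -0.28 (SE 0.0939; unadjusted p = 0.00247 and adjusted p = 0.0755 in the DESeq2 Wald test), a value 1.22-fold lower with TCPMOH at a base mean of 784. Among all tested genes rhcgb ranked 628 by p in the authors' deposited table, and 3.26% of tested genes had a smaller p. It did not pass the threshold of 0.05, and it would at 0.1, a level that 4.01% of tested genes reached. In the authors' deposited table slc9a3.2 stood at 0.28 (SE 0.110; unadjusted p = 0.0116 and adjusted p = 0.189 in the DESeq2 Wald test), 1.21-fold higher with TCPMOH. Its base mean of 75.1 was the lowest of the 10. The estimates of these functional partners thus carry opposite signs, and neither passed. The difference between them was not tested. The rhcgb gene lies on chromosome 25 from 8580941 to 8602460 and slc9a3.2 on chromosome 19 from 10737598 to 10788939 in the authors' deposited table.

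NCC cells take up sodium and chloride through the apical cotransporter encoded by slc12a10.2 and pass bicarbonate and sodium across the basolateral membrane through the product of slc4a4b. The log2 fold change of slc12a10.2 was -0.02 (SE 0.114; DESeq2 Wald test, adjusted p = 0.963) at a base mean of 390 in the authors' deposited table. It had the largest SE of the 10, and its 95% interval ran from -0.25 to 0.20. The span listed for CR383683.1 lies inside slc12a10.2 on the same strand, at a base mean of 0.933, and was not tested. The other overlapping spans, on the opposite strand, had lower base means and were not tested either. For slc4a4b, at a base mean of 1184, the authors' deposited table gives -0.22 (SE 0.0816; unadjusted p = 0.00828 and adjusted p = 0.157 in the DESeq2 Wald test), 1.16-fold lower with TCPMOH. The gene lies on chromosome 21 from 5993080 to 6107536 in the authors' deposited table. The apical and the basolateral transporter of this subtype thus had estimates of different size, and neither passed. The 95% interval of slc4a4b, -0.38 to -0.06, overlaps that of slc12a10.2, and the difference between them was not tested.

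The intervals describe the precision of these estimates at the deposited SE. They were not widened for the spread of 1.30 among the Wald statistics of tested genes, so they may be too narrow. All 10 deposited intervals lay inside a 1.5-fold change in either direction (0.58 on the log2 scale). The deposited folds appear to be shrunken toward 0, since even genes of very low base mean had small SEs, such as hbbe3 with 0.0421 at a base mean of 0.708. No SE in the authors' deposited table exceeded 0.124. A normal prior with a standard deviation of 0.248 would set that ceiling. This standard deviation was derived from the largest SE, so the match is no evidence for the prior. Use of a prior is stated in none of the labels or headers. With that shrinkage undone, on the assumption that the counts carried more information than the prior, rhcgb stood at -0.34 (95% interval -0.57 to -0.12), slc4a4b at -0.25 (-0.43 to -0.06) and slc9a3.2 at 0.38 (0.08 to 0.67). The intervals of 9 genes then stayed inside a 1.5-fold change, and that of slc9a3.2 reached beyond it. The other 7 values lay between -0.14 for foxi3a and 0.05 for foxi3b. Undoing the shrinkage in this way keeps the deposited Wald statistics and p-values by construction. Whether a fit without a prior would give the same p-values is unknown.

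Most of the 10 genes had a larger SE than other genes of like abundance, given here as a description with no test. For 7 of the 10 the SE in the authors' deposited table was above the median SE of tested genes whose base mean was within a factor of 1.5. Among the 4970 such genes around slc12a10.2, 94.1% had a smaller SE than its 0.114, and their median was 0.0866. Around ca15a 83.8% had a smaller SE, around ca2 83.6%, around rhcgb 82.6%, around foxi3a 79.1%, around slc4a4b 70.5% and around gcm2 63.3%, all from SEs of the authors' deposited table. Below the median were foxi3b (38.7%), atp6v1aa (30.6%) and slc9a3.2 (15.7%). Under the inferred prior the deposited SE levels off at its ceiling of 0.124 and then falls as the spread among pools grows, so near that ceiling it does not rank the spread. The tested genes around slc9a3.2 had a median SE of 0.117, close to the ceiling, and nothing is read from its place among them. The SEs of slc12a10.2 (0.114) and foxi3a (0.109) were themselves near the ceiling, so their places describe the SE and not the spread. Whether clutch, stage or the share of ionocytes differed among pools was not tested.

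**Figure D2:**
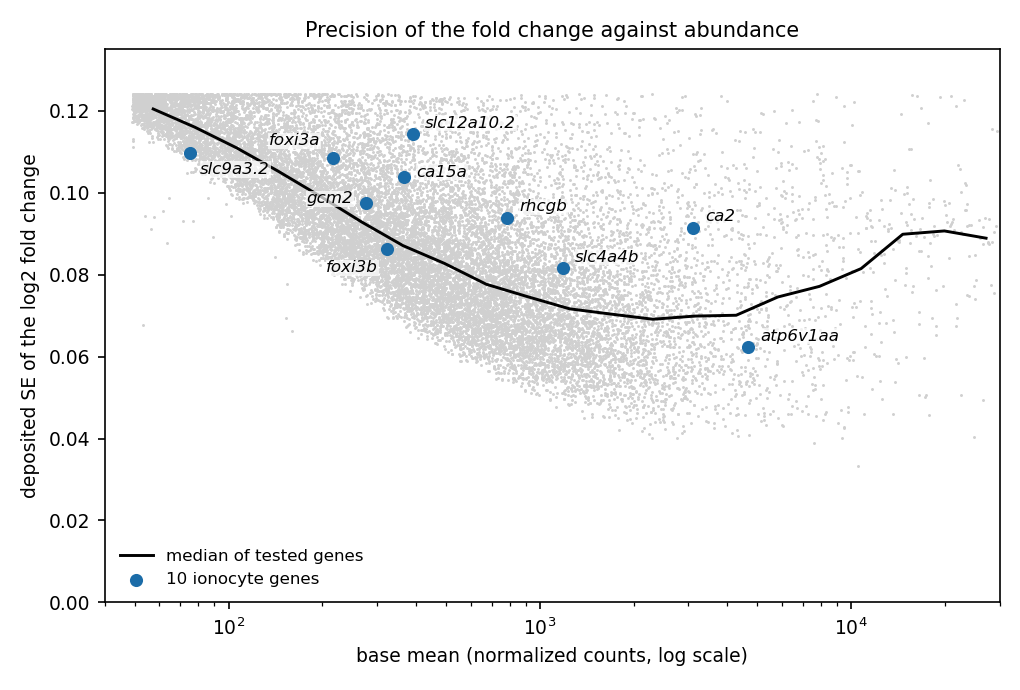
SE of the log2 fold change (y axis) against base mean (x axis, log scale) for 19257 tested genes (grey), with the binned median as a line and the 10 ionocyte genes in blue. Members above the line, such as slc12a10.2, ca15a, rhcgb and ca2, have a larger SE than most genes of like abundance, and foxi3b, atp6v1aa and slc9a3.2 lie below it.

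Several members have close relatives, some in tandem, which share part of their sequence. How the authors' counting divided reads among near-identical copies is not stated. The ca15 genes lie side by side on chromosome 12, with 3.00 kb between ca15a and ca15c. In the authors' deposited table ca15c was lower with TCPMOH at -0.50 (SE 0.122; DESeq2 Wald test, adjusted p = 0.00347), 1.42-fold, at a base mean of 62.7, while ca15a stood at 0.01. The call of ca15c was lost under the empirical null, in which the Wald statistics are divided by their own spread of 1.30 (adjusted p = 0.144 from the DESeq2 statistics). The third gene of the cluster, ca15b, had a base mean of 3.06 in the authors' deposited table and was not tested. The difference between ca15a and its neighbour was not tested.

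Other relatives of the members were not called. The tandem exchanger gene slc9a3.1, 7.11 kb from slc9a3.2, stood at -0.10 (SE 0.119; DESeq2 Wald test, adjusted p = 0.770), against 0.28 for slc9a3.2, at like base means of 72.1 and 75.1 in the authors' deposited table. The 3 slc12a10 genes on chromosome 7 stood at 0.04, -0.02 and 0.04 for slc12a10.1, slc12a10.2 and slc12a10.3 in the authors' deposited table. In the same source the paralog slc4a4a stood at 0.08 (SE 0.0873), against -0.22 for slc4a4b, and atp6v1ab at 0.01, against -0.01 for atp6v1aa, by the authors' deposited table.

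Rh glycoproteins move ammonia. Of 5 tested genes of the Rh family 3 had an unadjusted p under 0.05, all with negative values, against 13.0% of all tested genes in either direction. Beside rhcgb these were rhcga at -0.34 (SE 0.119; DESeq2 Wald test, adjusted p = 0.102) and rhcgl1 at -0.25 (SE 0.115; DESeq2 Wald test, adjusted p = 0.295) in the authors' deposited table. Also tested were rhbg at 0.11 (DESeq2 Wald test, adjusted p = 0.608) and the erythrocyte gene rhag at 0.08 (DESeq2 Wald test, adjusted p = 0.724) in the authors' deposited table, and rhd, at a base mean of 21.3, was not tested. The family had a median log2 fold change of -0.25, beside -0.0016 for all tested genes, and 0 of its 5 genes were called, against 2.68% of all genes. Where each Rh gene is expressed cannot be read from whole-animal pools.

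**Figure D3:**
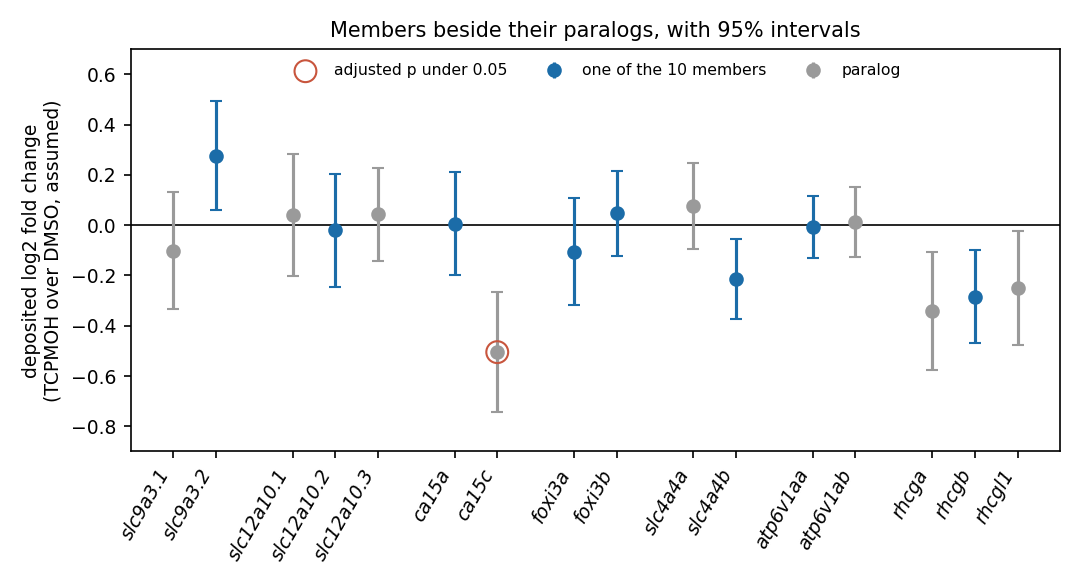
Deposited log2 fold change (y axis, TCPMOH over DMSO as read here) with 95% intervals for members (blue) and their tested paralogs (grey), grouped by family. The 3 rhcg genes share a negative sign, and ca15c, ringed, is the single gene with an adjusted p under 0.05, at -0.50.

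Wider lists of ionocyte and ion transport genes were described in the same way, by counts and medians. In all, 188 tested genes besides the 10 members stood in the 18 lists, and 6 were called in the authors' deposited table, 1 higher and 5 lower, or 3.19%, against 2.68% of all tested genes. The background by direction was 0.758% called higher and 1.92% called lower.

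By subtype, the HR list had 9 tested genes, 7 of them members, with a median of -0.01 and 0 called. Its other genes were the anion exchanger gene slc4a1b at 0.05 (DESeq2 Wald test, adjusted p = 0.898) and the pump subunit gene atp1a1a.5 at -0.14 (DESeq2 Wald test, adjusted p = 0.430) in the authors' deposited table. Of 6 tested NaR genes 1 was called, the epithelial calcium channel gene trpv6, higher with TCPMOH at 0.42 (SE 0.110; DESeq2 Wald test, adjusted p = 0.00851), 1.34-fold, at a base mean of 1239 in the authors' deposited table. That call was lost under the empirical null (adjusted p = 0.223 from the DESeq2 statistics). In the authors' deposited table igfbp5a, which encodes an insulin-like growth factor binding protein of NaR cells, stood at 0.25 (SE 0.0998; unadjusted p = 0.0113 and adjusted p = 0.186 in the DESeq2 Wald test), and the calcium exchanger gene slc8a1b at 0.05. The NaR median was 0.05. NCC genes had a median of -0.08 over 4 tested genes, with the chloride channel gene clcn2c at -0.14 (DESeq2 Wald test, adjusted p = 0.449) and the pump subunit gene atp1a1a.2 at 0.11 (DESeq2 Wald test, adjusted p = 0.575) in the authors' deposited table. Of 6 KS genes, the kcnj1a potassium channels, 3 were tested, with a median of -0.14 and 0 called. Most of their listed spans overlap another of the family on the same strand, so their counts may not be separate readings. Whether the subtypes differ from each other was not tested.

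By family, 25 tested V-ATPase subunit and accessory genes had a median of -0.01, a range from -0.12 to 0.08 and 0 called, with the accessory gene atp6ap2 lowest by p at -0.11 (DESeq2 Wald test, adjusted p = 0.360) in the authors' deposited table. Carbonic anhydrase genes, 16 tested, had a median of 0.00 with ca15c alone called. None of 8 tested sodium proton exchanger genes (median 0.03), 12 cation chloride cotransporter genes (median 0.02) or 17 bicarbonate transporter genes (median 0.03) passed the DESeq2 Wald test of the authors, and 1, 0 and 2 of them had an unadjusted p under 0.05. The sodium potassium ATPase list, 16 tested with a median of -0.04, held 1 called gene, the beta subunit gene atp1b1a. It was lower with TCPMOH at -0.29 (SE 0.0597; DESeq2 Wald test, adjusted p = 1.59e-04), 1.23-fold, at a base mean of 9718 in the authors' deposited table. Among the alpha subunits atp1a1a.4 stood at -0.30 (SE 0.109; DESeq2 Wald test, adjusted p = 0.125) in the authors' deposited table. These subunits serve nerve, muscle and kidney as well as ionocytes.

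Among upstream genes, 3 of the 5 foxi family and gcm genes were tested, all of them members, with a median of 0.04 and 0 called. The 16 tested specification genes, of the Notch pathway and epidermal precursors, had a median of 0.04 with 14 positive and 0 called. Of all tested genes 50.6% were negative, and 1 of the 16 had an unadjusted p under 0.05. Expression of the 16 outside ionocyte precursors cannot be separated in pools of whole animals. The epidermal factor gene tp63 had the smallest p of these at 0.21 (SE 0.0812; DESeq2 Wald test, adjusted p = 0.162) in the authors' deposited table, and it was called (adjusted p = 0.0472 from the DESeq2 statistics) after a shift that makes the groups' summed values equal. Of 25 tested hormones and receptors of ion balance (median 0.04), 1 was called. The stanniocalcin gene stc2a was lower with TCPMOH at -0.31 (SE 0.0876; DESeq2 Wald test, adjusted p = 0.0217), 1.24-fold, in the authors' deposited table, and its call was lost after that shift (adjusted p = 0.0721) and in the empirical null (0.344), both from the DESeq2 statistics. The related stc1l, of the family that restrains calcium uptake, stood at -0.30 (SE 0.111; DESeq2 Wald test, adjusted p = 0.134) in the authors' deposited table.

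**Figure D4:**
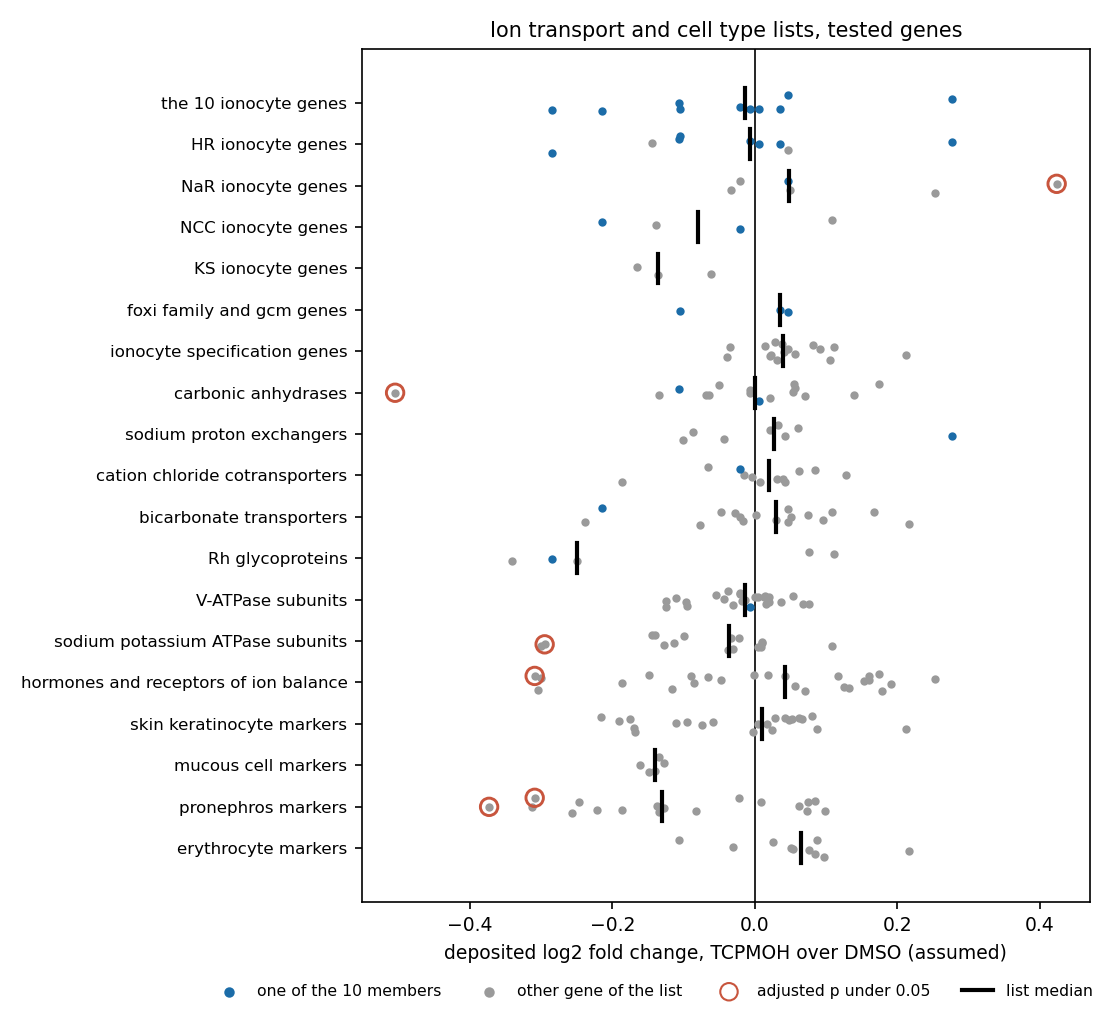
Deposited log2 fold change (x axis, TCPMOH over DMSO as read here) of tested genes in each list (rows), with members in blue, other genes in grey, called genes ringed and list medians as bars. The members straddle 0, and the 6 ringed genes are trpv6 on the positive side and ca15c, atp1b1a, stc2a, slc34a1a and trpm7 on the negative side.

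Many of these transporters also work in the kidney, blood and intestine, so markers of other cells were set beside them. Of 18 tested pronephros markers 2 were called, both lower with TCPMOH, against 1.92% of all tested genes called lower. An unadjusted p under 0.05 was reached by 5 of the 18, all negative, against 13.0% of all tested genes in either direction. The median of the 18 was -0.13 with 12 negative, and 50.6% of all tested genes were negative. The 2 called markers were the phosphate cotransporter gene slc34a1a at -0.37 (SE 0.0964; DESeq2 Wald test, adjusted p = 0.00809) and the channel kinase gene trpm7 at -0.31 (SE 0.0715; DESeq2 Wald test, adjusted p = 0.00177) in the authors' deposited table. Both calls were lost under the empirical null (adjusted p = 0.216 and 0.103 from the DESeq2 statistics). The sulfate transporter gene slc13a1 stood at -0.31 (DESeq2 Wald test, adjusted p = 0.0875) and the duct marker cdh17 at -0.25 (adjusted p = 0.0968) in the authors' deposited table. Markers of skin keratinocytes, the cells around the ionocytes, had a median of 0.01 over 22 tested genes, 12 positive and 10 negative, with 0 called. All 10 negative genes were of the krt, cyt1 and icn families, in which krt17 alone was positive, at 0.08 in the authors' deposited table. The remaining genes of the list were all positive, so the median near 0 describes neither part. Whether the parts differ was not tested. An unadjusted p under 0.05 was reached by 3 of the 22, krt4 at -0.17, cyt1l at -0.22 and tp63 at 0.21 in the authors' deposited table. The 5 tested mucous cell markers had a median of -0.14, all negative, and the 10 tested erythrocyte markers a median of 0.07, with 8 positive. None of either list was called, and 1 and 0 had an unadjusted p under 0.05. The part of these cell types in the values of rhcgb, slc4a4b and slc9a3.2 was not tested.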

How the data were processed

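Messenger RNA of whole zebrafish pools was sequenced with a stranded kit, per the labels. The submitters' processing notes name FastQC, cutadapt, STAR, featureCounts and DESeq2 and give no versions, and the genome build is named in no source. The authors deposited their DESeq2 result for DMSO and TCPMOH libraries. Its base mean is a signal (mean normalized count), its fold change a log2 value, and its SE and Wald statistic are scores that the authors deposited. The authors deposited a Wald p-value for 32336 genes. Of these, 19257 also had a Benjamini-Hochberg adjusted p-value, all with a base mean of at least 49.1. Genes called tested here are those 19257, and genes without an adjusted p-value are called not tested. Recomputed Wald statistics lay within 8.40e-07 of the deposited ones, and recomputed adjusted p-values within 5.17e-06. Depth per library is unknown here, and base means sum to 24808364.

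The deposited statistics were used as planned for a table of this kind, with 95% intervals of 1.96 SE. The members and the 18 lists were chosen with earlier results of these data known. Named genes are all members, every called list gene, and up to 3 uncalled genes of a list by smallest p. Paralogs of members, the overlapping neighbours that had an adjusted p, and CR383683.1, which overlaps slc12a10.2 on the same strand, were also named. The genes rhbg, rhag, rhd, slc4a1b, hbbe3 and krt17 were named after their values were seen. Of several rows with 1 symbol, that with the highest base mean was taken. Of the 221 listed genes besides the members, 3 were not matched by symbol and were not used here. The Ensembl identifiers of 6 members carried the same symbol in the gene name table, and those of gcm2, rhcgb, slc4a4b and atp6v1aa the names GCM2, RHCG, SLC4A4 and ATP6V1A. Alternatives were other centrings, an empirical null, no filter on low base means, a threshold of 0.1, the row with the lowest p, and shrinkage undone. The functions were tested on simulated data. Computation used numpy 2.4.6 and pandas 2.3.3 in Python 3.11.15, with scipy 1.17.1, and plots matplotlib 3.10.9.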

Additional observations from a re-analysis of the deposited data

How the results depend on the processing

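The count of called members was 0 with either other centring, under the empirical null and without the filter on low base means. It was 1 (rhcgb) at an adjusted p under 0.1. Taking the row with the lowest p could not change the count, since each member had 1 row. The smallest adjusted p among the members, from the DESeq2 statistics, was 0.0760 for slc9a3.2 with equal group sums, and for rhcgb it was 0.0786 with median centring, 0.123 without the filter and 0.610 under the empirical null. Centring on equal group sums, which takes -0.048 as the point of no change, turned atp6v1aa to 0.04 and slc12a10.2 to 0.03, so their signs give no direction. The median of the members was then 0.03 on the log2 scale, and -0.02 with shrinkage undone. Over all lists 6 genes were called, 1 (atp1b1a) under the empirical null and 9 at 0.1. All 19257 tested genes gave 516 calls, 573 with equal group sums, 121 under the empirical null and 773 at 0.1. Without the filter there were 433 calls, over the larger set of 32336 genes with a p-value. No paired analysis was possible because the deposited table holds no values per library, and leaving out each replicate was not run for the same reason. SEs near the ceiling of 0.124, as for ca15c, make the unshrunken fold unsure. With shrinkage undone the widest interval was that of slc12a10.2 (SE 0.165), and that of slc9a3.2 reached furthest from 0, to 0.67.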
